A study of Danio rerio with 11 samples.

Results

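One cup of zebrafish embryos kept with Gulfport oil emulsion was set against 2 cups kept with emulsions from other shoreline sites, Fort Morgan and Perdido Key, all collected at 72 h post fertilization (hpf). The comparison took 6 of the 11 arrays of the study: 1 array for Gulfport, 1 each for Fort Morgan and Perdido Key, and 3 of unexposed control embryos of the same age, which gave the spread. Every emulsion array came from embryos exposed from 24 to 72 hpf to 250 mg of emulsion coated onto the cup bottom, and the controls were kept in medium alone. A cup held 30 embryos in 100 ml of medium, and the RNA of a whole cup was pooled for 1 Affymetrix zebrafish array. The emulsions were mixtures of alkanes, polynuclear aromatic hydrocarbons, sand and seawater in differing proportions, washed ashore after the Deepwater Horizon blowout. Because each emulsion was represented by 1 cup, every result below compares cups, and the site, the portion of emulsion, the clutch of embryos and the array cannot be told apart. The labels do not say whether the control arrays came from separate cups, so the spread among them may be technical. The p-values rest on that spread and on the difference between the Fort Morgan and Perdido Key arrays. No emulsion was repeated at 72 hpf, so they cover no spread between cups of the same emulsion. Arrays of Gulfport emulsion at 48 hpf (exposed from 0 hpf) and at 96 hpf (exposed from 48 hpf), with 1 and 2 control arrays, were used to look up the same probe sets in cups outside the comparison.

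The values are log2 probe set signals from RMA (robust multi-array average), in which a difference of 1 is a doubling. Of 15502 probe sets for zebrafish transcripts, 9803 reached a signal of 6 in 1 or more of the study's arrays and were analysed; they covered 6466 named genes. Array medians at all ages lay between 6.37 and 6.43. The lower quartile was 4.75 for both Perdido Key and control replicate 2, against 4.81 to 4.83 for the other 4 arrays at 72 hpf. Defining genes of the embryo's large tissues were bright in every array, with a median log2 level over 36 skeletal muscle genes of 10.95 in Gulfport, 11.07 in Fort Morgan, 11.09 in Perdido Key and 10.86 to 11.26 in controls.

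Polycyclic aromatic hydrocarbons bind the aryl hydrocarbon receptor, which switches on cytochrome P450 genes of the CYP1 family, and their reactive products engage the Nrf2 pathway of antioxidant defence. Cells under acute stress also switch on immediate early transcription factors of the AP-1 family (Fos, Jun and ATF proteins), heat shock proteins that refold damaged proteins, and a programme that slows translation and spares amino acids. In larval zebrafish, injured or inflamed epithelium makes matrix metalloproteinases, enzymes that cut collagen and gelatin. Over the same days of development the photoreceptors of the retina, the liver and the exocrine pancreas are maturing, so their genes rise steeply with age.

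The Gulfport array stood further from the controls than the other exposed arrays did. Between Gulfport and the 3 controls, 179, 285 and 278 probe sets were at least 1 apart on the log2 scale. The corresponding counts were 66, 139 and 94 for Fort Morgan and 64, 57 and 70 for Perdido Key. Pairs of controls differed in 21, 36 and 41. Among the exposed arrays, Gulfport and Fort Morgan were at least 1 apart in 84 probe sets, of which 71 were higher in Gulfport. Gulfport and Perdido Key were at least 1 apart in 160, of which 92 were higher in Gulfport. Fort Morgan and Perdido Key were at least 1 apart in 56, of which 12 were higher in Fort Morgan. Fort Morgan was thus the nearer of the other emulsions to Gulfport by this count, as the plot of pair counts shows.

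**Figure D1:**
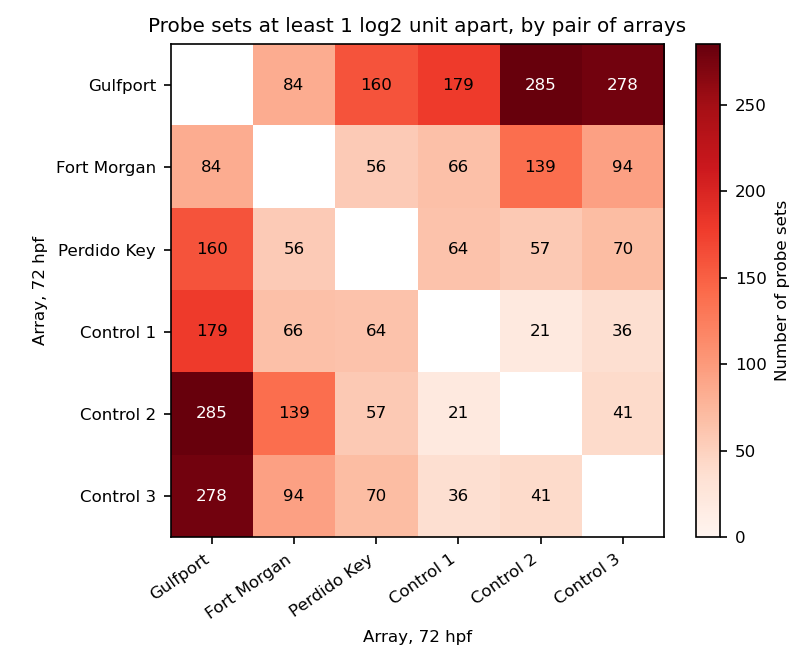
Number of tested probe sets at least 1 log2 unit apart for each pair of the 6 arrays at 72 hpf; rows and columns are the arrays, and the colour and printed number are the count. The Gulfport row holds the highest counts against controls (179 to 285), while pairs of controls hold 21 to 41.

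In the Gulfport cup the chaperone gene hsp70.3, the prostaglandin synthesis gene ptgs2a, the translation gene ppp1r15a and 1 of the probe sets of the kinase gene mknk2b were called above the other emulsions, and each of these calls was lost without 1 or another single control array. The metalloproteinase genes mmp13a and mmp9 had the largest differences among named genes without passing the test. The named genes on the lower side, none of which passed, included gngt1 of rods, fabp10a of the liver and the retinol carrier gene rbp2a. By a rule of size alone, 49 probe sets were at least 1 above both other emulsion arrays (0.5% of those tested) and 12 at least 1 below both (0.122%). The 49 covered 34 named genes, with 40 probe sets of 1 symbol, 1 of several and 8 of none. The 12 covered 6 named genes. At any size, Gulfport lay above both in 32.5% of all tested probe sets and below both in 37%. The size rule used these 3 arrays, so its counts are a description.

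In 48 of the 49 higher probe sets Gulfport also exceeded all 3 controls and so was the highest of the 6 arrays (over all probe sets tested, 20.3%). Since the same Gulfport array chose these probe sets, this too is a description. The exception was a probe set of fosab, where control replicate 3 was higher. In 12 of the 12 lower probe sets Gulfport was the lowest of the 6 (over all, 25%). Just inside the higher limit stood rdh10b, 1.00 above the nearer array, and just outside stood the chaperone partner gene dnajb1b at 0.98. The probe set of rdh10b reached the filter's signal of 6 only in this Gulfport array. On the lower side apoda.2 was just inside at -1.01, and the neurofilament gene neff1 just outside at -0.96.

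**Figure D2:**
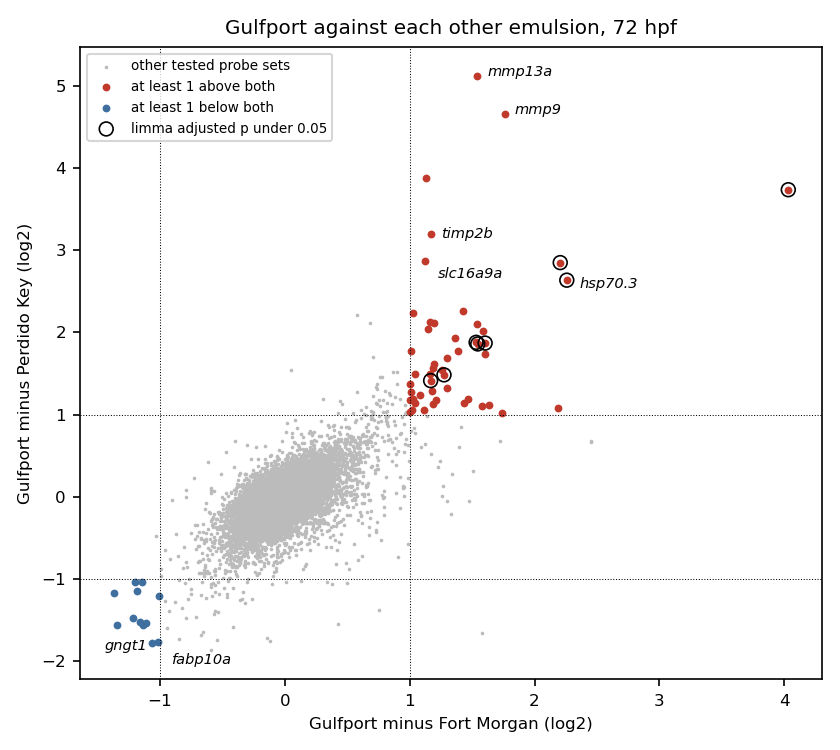
Each point is a tested probe set, with its log2 difference of Gulfport minus Fort Morgan on the horizontal axis and of Gulfport minus Perdido Key on the vertical axis; dotted lines mark differences of 1. The 49 probe sets at least 1 above both are red, the 12 at least 1 below both are blue, and rings mark the 8 with a limma adjusted p under 0.05, all of them in the upper right.

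The limma test set Gulfport against the mean of Fort Morgan and Perdido Key, with the spread taken from the controls and from the difference between those emulsions. The lone Gulfport array was assumed to vary like the others. It called 8 probe sets higher (0.0816% of 9803) and 0 lower (0%) at an adjusted p under 0.05. At an unadjusted p under 0.05, 476 were higher (4.86%) and 411 lower (4.19%). The 8 calls depended on single arrays: 1 probe set was called higher without control replicate 1, 7 without control replicate 2 and 1 without control replicate 3. Without Perdido Key there were 3, and without Fort Morgan 15, with 1 lower, the liver gene fabp10a (limma adjusted p = 0.0432, and 0.0432 to 0.498 over all alternatives).

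Heat shock protein 70 gave the largest named call. The gene hsp70.3, a stress-inducible chaperone that holds unfolded proteins, had a log2 signal of 9.33 in Gulfport, 7.07 in Fort Morgan, 6.69 in Perdido Key, and 6.87, 6.73 and 6.96 in controls. Only the Gulfport array was high, and the other 5 lay within a narrow band. The difference was 2.45 (SE 0.19), or 5.45-fold (limma adjusted p = 0.00793). A probe set shared by the symbols hsp70.1, hsp70l and hsp70.3 was called as well, at 2.53 (limma adjusted p = 0.0226), so the array does not tell these near-identical paralogs apart. The call of hsp70.3 was lost without control replicate 1 (0.0685) or control replicate 3 (0.0565) and held without Perdido Key (0.0175) and without Fort Morgan (0.00612). Over all alternatives its adjusted p ran from 0.00224 to 0.346.

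Prostaglandin synthesis and the restart of translation were represented by 1 gene each. The gene ptgs2a, an inducible cyclooxygenase that makes prostaglandins, had 7.56 in Gulfport, 6.03 in Fort Morgan, 5.68 in Perdido Key, and 5.66, 5.47 and 5.79 in controls. Fort Morgan lay just above all 3 controls and Perdido Key among them. The difference was 1.71 (SE 0.19), or 3.26-fold (limma adjusted p = 0.0391). The gene ppp1r15a, whose product guides a phosphatase to a translation factor and so lets protein synthesis resume after stress, had 9.28 in Gulfport, 8.11 in Fort Morgan, 7.86 in Perdido Key, and 8.09, 8.03 and 8.03 in controls. It rose by 1.29 (SE 0.15), or 2.45-fold (limma adjusted p = 0.0391), against arrays that lay within 0.25 of each other.

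The remaining calls were of a kinase and of genes of less known function. For mknk2b, a kinase downstream of MAP kinases that phosphorylates a cap-binding translation factor, 1 probe set had 9.09 in Gulfport, 7.55 in Fort Morgan, 7.23 in Perdido Key, and 7.54, 7.24 and 7.56 in controls (difference 1.70, limma adjusted p = 0.0391). Its brightest probe set gave 10.38, 8.79 and 8.36 in the Gulfport, Fort Morgan and Perdido Key arrays, against 8.92, 8.07 and 8.44 in controls. It differed by 1.80 without passing (limma adjusted p = 0.126). Both probe sets had Gulfport alone at the top. The gene si:ch73-335l21.4 had 8.18 in Gulfport, 6.58 in Fort Morgan, 6.31 in Perdido Key, and 6.23, 6.09 and 6.33 in controls (difference 1.74, limma adjusted p = 0.0226). For zgc:111983, 1 probe set was called at 1.38 (limma adjusted p = 0.0391) and another, at 1.19, was not (0.0870). A probe set without a gene symbol in the annotation had 7.94 in Gulfport, 3.91 in Fort Morgan, 4.21 in Perdido Key, and 3.65, 3.46 and 3.43 in controls (difference 3.88, SE 0.17, limma adjusted p = 0.000264). In those 5 arrays it lay below the lower quartile of all values, and no detection call was used here, so the size of its difference is uncertain. It was the only probe set called under each omission of a single array at 72 hpf that could be made. Among unexposed larvae at 96 hpf the same probe set had 3.42 in replicate 1 and 6.89 in replicate 2. The calls of ptgs2a, ppp1r15a, mknk2b, si:ch73-335l21.4 and zgc:111983 were lost without control replicate 1, control replicate 3 or Perdido Key (limma adjusted p = 0.0883 to 0.126). Those of ppp1r15a and zgc:111983 were also lost without control replicate 2 (0.0653 and 0.0552).

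**Figure D3:**
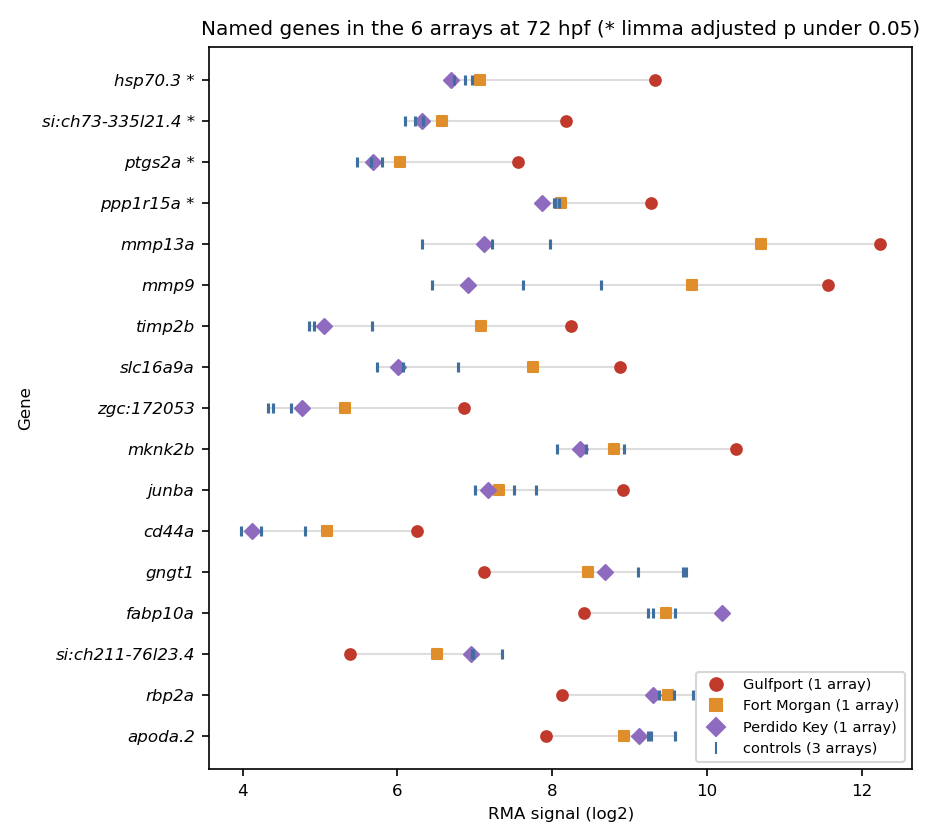
Log2 RMA signal of the named genes in the 6 arrays at 72 hpf, 1 row per gene, with the Gulfport array as a red circle, Fort Morgan as an orange square, Perdido Key as a violet diamond and the 3 controls as blue ticks; an asterisk marks a limma adjusted p under 0.05. In mmp13a, mmp9, timp2b and slc16a9a the Fort Morgan array lies between Gulfport and the rest, while in hsp70.3 the other 5 arrays lie together.

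The matrix metalloproteinases differed most among named genes. The collagenase gene mmp13a had 12.24 in Gulfport, 10.69 in Fort Morgan, 7.12 in Perdido Key, and 7.98, 6.31 and 7.22 in controls. The gelatinase gene mmp9 had 11.57 in Gulfport, 9.81 in Fort Morgan, 6.91 in Perdido Key, and 8.63, 6.44 and 7.63 in controls. In both, Gulfport was highest, Fort Morgan also exceeded all controls, and Perdido Key lay within the control range. The differences of Gulfport from the mean of the other emulsions were 3.33 for mmp13a (SE 1.24, limma adjusted p = 0.470) and 3.21 for mmp9 (SE 1.14, limma adjusted p = 0.452). Fort Morgan itself exceeded Perdido Key by 3.58 and 2.90, and that gap is part of the spread in the test. With Perdido Key left out, the differences were 1.54 and 1.76.

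The genes timp2b, slc16a9a and cd44a had the same order of arrays. For timp2b, an inhibitor of metalloproteinases, the values were 8.24 in Gulfport, 7.07 in Fort Morgan, 5.05 in Perdido Key, and 5.67, 4.86 and 4.92 in controls (difference 2.18, SE 0.71, limma adjusted p = 0.430). For slc16a9a, of the monocarboxylate transporter family, they were 8.87 in Gulfport, 7.75 in Fort Morgan, 6.01 in Perdido Key, and 6.78, 5.73 and 6.07 in controls (difference 1.99, SE 0.65, limma adjusted p = 0.430). For cd44a, a receptor for the matrix sugar hyaluronan, they were 6.25 in Gulfport, 5.09 in Fort Morgan, 4.12 in Perdido Key, and 4.80, 3.98 and 4.24 in controls (difference 1.64, SE 0.42, limma adjusted p = 0.298). None of the 3 passed, and in each Fort Morgan was second and above all controls. In Perdido Key and all 3 controls, cd44a lay below the lower quartile of the array, so the size of its difference is uncertain. With Fort Morgan left out, timp2b passed (limma adjusted p = 0.0432, and 0.0432 to 0.769 over all alternatives) at a difference of 3.2 from Perdido Key.

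The rest of the matrix list lay nearer to the other emulsions. Of 17 measured matrix proteases and inhibitors, 12 lay above both other emulsions in Gulfport and 3 below both, with a median difference of 0.18 and 0 called. Over all 6466 genes, 33.0% lay above both, 36.2% below both, and the median was -0.01. The fourth largest member was the lysosomal protease gene ctsla, at 0.59. Metalloproteinases are also made by leukocytes. In extracts of whole embryos, fewer cells of a type and less RNA per cell cannot be told apart. Over 11 neutrophil and macrophage markers, 8 lay above both other emulsions and 1 below both, with a median of 0.19, 0 called, and a mean log2 level of 6.93 in Gulfport, 6.86 in Fort Morgan, 6.65 in Perdido Key and 6.63 to 6.90 in controls. The neutrophil granule enzyme gene mpx had 6.4 in Gulfport, 6.48 in Fort Morgan, 6.35 in Perdido Key, and 6.25, 6.41 and 6.45 in controls. The lysozyme gene lyz had 8.30 in Gulfport, 8.62 in Fort Morgan, 8.02 in Perdido Key, and 8.48, 8.37 and 8.78 in controls. In both genes the Gulfport value lay among the others or below the controls. Their part in the metalloproteinase values was not tested. The macrophage genes marco and csf1ra were dim, at 4.33 and 4.41 in Gulfport, and were not tested. Of the list's members of largest difference, the cathepsin gene ctss2.1 was at 0.75 and the leukocyte actin-bundling gene lcp1 at 0.51, while cpa5, which the pancreas list also holds, was at -0.81.

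Immediate early and AP-1 genes lay mostly above the other emulsions. Of 34 measured, 23 lay above both in Gulfport and 2 below both, with a median difference of 0.41, and 0 were called. The gene junba, an AP-1 subunit, had 8.91 in Gulfport, 7.31 in Fort Morgan, 7.17 in Perdido Key, and 7.51, 7.0 and 7.78 in controls (difference 1.67, SE 0.28, limma adjusted p = 0.104). The gene atf3, a stress-induced transcription factor, had 8.28 in Gulfport, 6.64 in Fort Morgan, 7.17 in Perdido Key, and 6.38, 6.55 and 6.43 in controls (difference 1.37, SE 0.21, limma adjusted p = 0.0870). Gulfport was highest in both genes, and for atf3 both other exposed arrays also exceeded the controls. The brightest probe set of fosab, the c-Fos gene, had 9.37 in Gulfport, 6.92 in Fort Morgan, 8.70 in Perdido Key, and 8.38, 8.40 and 9.86 in controls (difference 1.56, limma adjusted p = 0.615). There Fort Morgan was the low array and Gulfport lay within the control range. The early gene ier2a had 8.39 in Gulfport, 6.81 in Fort Morgan, 7.29 in Perdido Key, and 7.36, 7.09 and 8.13 in controls (difference 1.34, limma adjusted p = 0.369). Measured against the control mean, the list's median was 0.28 in Gulfport, -0.15 in Fort Morgan and 0.08 in Perdido Key. Fort Morgan was the lowest of the exposed arrays by this measure. Fort Morgan minus Perdido Key had a median of -0.47, larger in size than the list's Gulfport difference of 0.41. Without Perdido Key, that is against the low Fort Morgan array alone, the median difference of the list was 0.65.

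Cytokine signalling and inflammatory genes behaved alike in direction. Of 15 genes of JAK-STAT signalling, 8 lay above both other emulsions and 1 below both, with a median of 0.21 (0.62 without Perdido Key) and 0 called. Another 6 lay between the other emulsions. Against the control mean the list's median was 0.42 in Gulfport, -0.13 in Fort Morgan and 0.19 in Perdido Key. Fort Morgan minus Perdido Key had a median of -0.21, so the value without Perdido Key is measured against the lower of these arrays. The list's members of largest difference after junba were cebpb, a transcription factor of acute inflammation, and the SOCS feedback inhibitors socs3b and socs3a. The gene cebpb had 10.35 in Gulfport, 9.05 in Fort Morgan, 8.67 in Perdido Key, and 8.60, 8.33 and 9.02 in controls (difference 1.49, limma adjusted p = 0.140). The gene socs3b had 8.94 in Gulfport, 7.68 in Fort Morgan, 7.40 in Perdido Key, and 7.52, 7.09 and 7.06 in controls (difference 1.4, SE 0.22, limma adjusted p = 0.0892). Gulfport was highest of the 6 arrays in both, and Fort Morgan exceeded the controls by a small margin. Of 12 genes of inflammatory signalling, 8 lay above both and 3 below both, with a median of 0.48 and 1 called, ptgs2a. Others of largest difference were the chemokine receptor gene cxcr4a at 0.92, the NF-kappaB inhibitor gene nfkbiaa at 0.84 and the chemokine gene cxcl14 at 0.63, none of which passed. The 3 genes below both were the chemokine genes ccl34b.1, cxcl12b and ccl19a.1, at -0.44, -0.37 and -0.36. The interferon list had 4 measured genes, 2 of them above both other emulsions and 0 below. Of these 2, irf7 reached the filter's signal of 6 only in the Gulfport array at 72 hpf.

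Chaperones formed the list with the other called member. Of 33 genes of heat shock and unfolded protein, 20 lay above both other emulsions and 5 below both, with a median of 0.24, and hsp70.3 was called. The collagen chaperone gene serpinh1b had 9.60 in Gulfport, 8.16 in Fort Morgan, 8.46 in Perdido Key, and 8.63, 8.59 and 7.56 in controls (difference 1.28, limma adjusted p = 0.429). The cytosolic chaperone gene hsp90aa1.2 had 9.98 in Gulfport, 8.77 in Fort Morgan, 8.80 in Perdido Key, and 9.09, 9.27 and 8.89 in controls (difference 1.19, limma adjusted p = 0.0788). Both had Gulfport alone above the controls. The gene dnajb1b, which loads clients onto Hsp70, was at 1.06 (limma adjusted p = 0.0856). The gene hspa5, for the main lumenal chaperone of the endoplasmic reticulum, did not enter the rule and was at 0.85.

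Growth arrest and amino acid genes leaned the same way. Of 16 p53 and DNA damage genes, 11 lay above both other emulsions and 1 below both, with a median of 0.31 and 0 called. In the same 11 Gulfport was the highest of the 6 arrays (68.8% of the 16, against 21.4% of all genes). They include gadd45aa and fas, which reached the filter's signal of 6 only in this Gulfport array. The share was thus partly fixed by the filter. The growth arrest gene gadd45aa had 6.45 in Gulfport, 5.03 in Fort Morgan, 5.6 in Perdido Key, and 4.46, 4.65 and 4.76 in controls (difference 1.13, limma adjusted p = 0.195). The gene mdm2, which encodes the ligase that degrades p53, had 8.46 in Gulfport, 7.64 in Fort Morgan, 7.55 in Perdido Key, and 7.51, 7.68 and 7.65 in controls (difference 0.86, limma adjusted p = 0.0986). Gulfport stood alone for mdm2, whereas for gadd45aa all 3 exposed arrays exceeded the controls. The control values of gadd45aa lay below the lower quartile of their arrays, so the size of that excess is uncertain. The survival gene mcl1a was at 0.76 and the death receptor gene fas at 0.68. Of 20 genes of the amino acid response, which the factor ATF4 drives when amino acids run short, 13 lay above both and 2 below both, with a median of 0.27. Its members of largest difference were atf5b at 0.77, the asparagine synthetase gene asns at 0.50, and iars1 and psat1 at 0.47 each. Of 51 translation factors and tRNA synthetases, 24 lay above both and 12 below both, with a median of 0.10 (0.04 without Perdido Key). None of these 3 lists had a called member.

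Hypoxia and glycolysis genes did not lean either way, with 11 of 29 above both other emulsions and 10 below both. Their median was 0.00 (0.11 without Perdido Key and -0.11 without Fort Morgan). Single members were high. The gene igfbp1a, a growth factor binding protein that hypoxia induces, had 10.36 in Gulfport, 9.17 in Fort Morgan, 8.79 in Perdido Key, and 8.65, 8.30 and 8.66 in controls (difference 1.37, limma adjusted p = 0.0870). The gene pfkfb3, which makes an activator of glycolysis, had 7.97 in Gulfport, 6.85 in Fort Morgan, 6.91 in Perdido Key, and 6.33, 6.33 and 6.14 in controls (difference 1.09, limma adjusted p = 0.0662). For both, the other exposed arrays also exceeded all controls, with Gulfport highest.

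The AHR targets cyp1a and cyp1c1 were high in all 3 exposed cups. Of 7 measured AHR genes, 4 lay above both other emulsions in Gulfport and 2 below both, with a median of 0.16 and 0 called. The gene cyp1a, the classic AHR target, had 12.99 in Gulfport, 13.00 in Fort Morgan, 12.82 in Perdido Key, and 7.14, 6.84 and 7.13 in controls. All 3 exposed arrays were high and close together, and the difference of Gulfport from the others was 0.08 (SE 0.17, limma adjusted p = 0.960). Its relative cyp1c1 had 10.62 in Gulfport, 10.16 in Fort Morgan, 9.49 in Perdido Key, and 6.42, 5.92 and 6.24 in controls. The exposed arrays were again far above controls, with Gulfport highest (difference 0.79, SE 0.29, limma adjusted p = 0.465). The AHR list's median against the control mean was 0.92 in Gulfport, 0.86 in Fort Morgan and 0.94 in Perdido Key.

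The Nrf2 list spread more between the cups, with medians against the control mean of 0.80 in Gulfport, 0.64 in Fort Morgan and 0.40 in Perdido Key. Of its 19 genes, 13 lay above both other emulsions in Gulfport and 5 below both, and the median difference was 0.14 with 0 called. The glutathione peroxidase gene gpx1b had 9.35 in Gulfport, 8.20 in Fort Morgan, 7.30 in Perdido Key, and 7.70, 7.06 and 7.53 in controls (difference 1.59, limma adjusted p = 0.242). The gene sqstm1, a cargo receptor of autophagy, had 9.45 in Gulfport, 8.42 in Fort Morgan, 8.26 in Perdido Key, and 7.24, 7.49 and 7.57 in controls (difference 1.11, limma adjusted p = 0.0870). The exposed arrays did not overlap the controls for sqstm1, whereas Perdido Key lay among the controls for gpx1b. The thioredoxin gene txnb was at 0.93 and the peroxiredoxin gene prdx1 at 0.84. Of 22 phase I and II enzymes of drug metabolism, 9 lay above both and 10 below both, with a median of -0.07 that became 0.03 without Perdido Key.

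**Figure D4:**
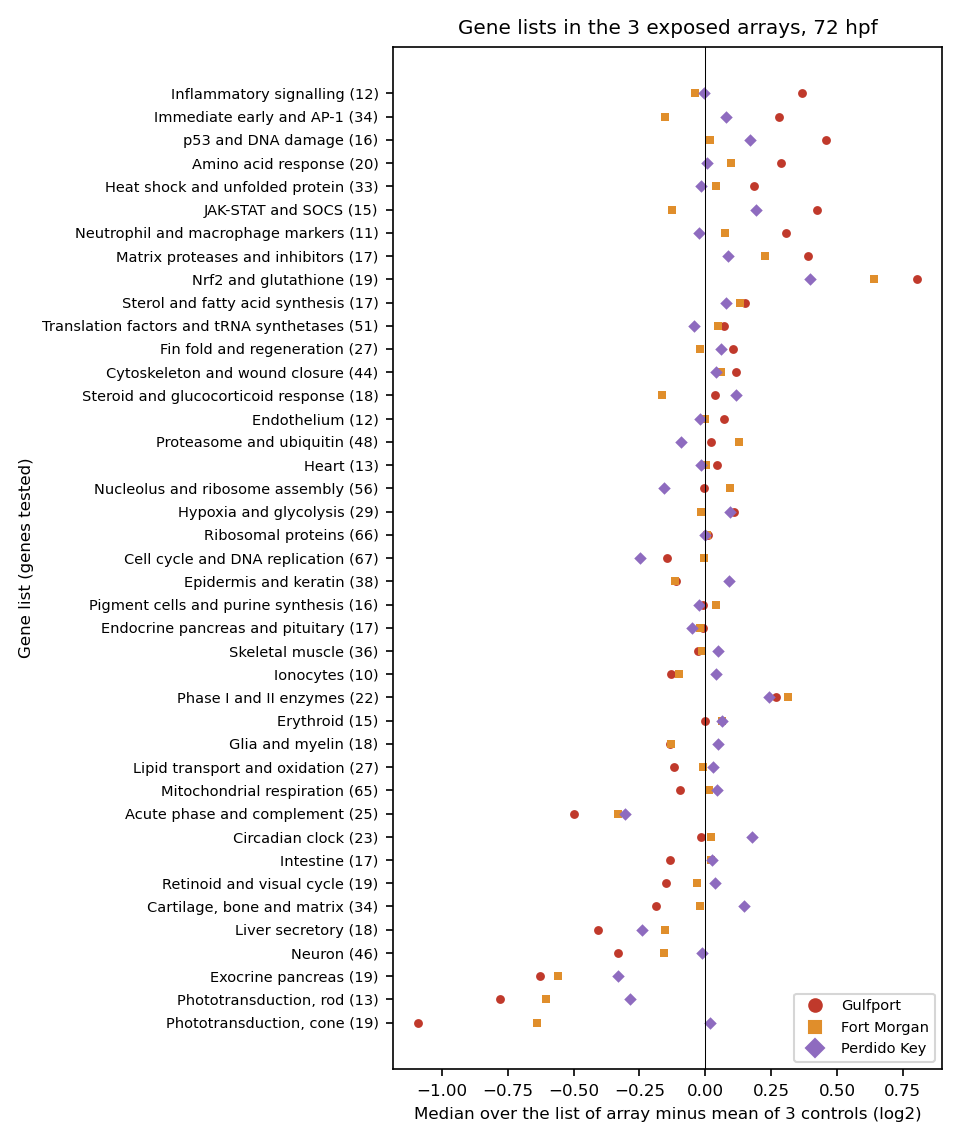
Median over each gene list of the log2 difference from the mean of the 3 controls, for the Gulfport (red circle), Fort Morgan (orange square) and Perdido Key (violet diamond) arrays at 72 hpf; lists with at least 10 tested genes are ordered by the median difference of Gulfport from the other emulsions. Cone and rod phototransduction lie at the bottom, with Gulfport at -1.09 and -0.78, and inflammatory and immediate early genes at the top.

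On the lower side were photoreceptor genes. Of 19 cone phototransduction genes, Gulfport lay below both other emulsions in 14 and above both in 2, with a median difference of -0.80 (-0.51 without Perdido Key) and 0 called. The cone transducin gene gnat2, which relays the light signal, had 8.93 in Gulfport, 9.58 in Fort Morgan, 10.57 in Perdido Key, and 10.03, 10.88 and 10.72 in controls (difference -1.15, limma adjusted p = 0.489). The cone phosphodiesterase gene pde6c had 8.55 in Gulfport, 9.09 in Fort Morgan, 10.29 in Perdido Key, and 9.56, 10.24 and 10.06 in controls (difference -1.14, limma adjusted p = 0.516). In both, Gulfport was lowest, Fort Morgan was also below all 3 controls, and Perdido Key was within or above the control range. Without Perdido Key their differences were -0.65 for gnat2 and -0.54 for pde6c. The recoverin gene rcvrn3 and the phosphodiesterase subunit gene pde6ha were at -1.17 and -1.14. The opsins are shown because they are the light sensors themselves. The ultraviolet opsin gene opn1sw1 had 11.26 in Gulfport, 11.83 in Fort Morgan, 12.69 in Perdido Key, and 12.37, 12.93 and 12.90 in controls, and 4 of 4 cone opsin genes were lowest in Gulfport. Over the cone list Gulfport was the lowest of the 6 arrays in 14 of 19 genes (73.7%, against 24.9% of all genes). The list's median against the control mean was -1.09 in Gulfport, -0.64 in Fort Morgan and 0.02 in Perdido Key. The gene crx, a transcription factor of photoreceptors, had 8.46 in Gulfport, 8.53 in Fort Morgan, 8.39 in Perdido Key, and 8.72, 8.83 and 8.54 in controls. All 3 exposed arrays lay close together there, just below the controls.

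The rod transducin gene gngt1 had 7.12 in Gulfport, 8.46 in Fort Morgan, 8.68 in Perdido Key, and 9.11, 9.69 and 9.73 in controls (difference -1.45, SE 0.26, limma adjusted p = 0.126). It was the largest named difference on the lower side, with Gulfport lowest and all 3 exposed arrays below all controls. Another rod transducin gene, gnat1, had 6.61 in Gulfport, 7.46 in Fort Morgan, 7.62 in Perdido Key, and 8.49, 8.78 and 8.81 in controls (difference -0.93, limma adjusted p = 0.145); a second, dimmer probe set of it was at -1.33. Of 13 rod genes, 9 lay below both other emulsions and 2 above both, with a median of -0.42 (-0.24 without Perdido Key) and 0 called. Fort Morgan lay close to Perdido Key for gngt1 and gnat1. For rgs9a and rcvrn2, next by size in the list at -0.84 and -0.74, Fort Morgan minus Perdido Key was -0.76 and -0.58. The cone list also holds rcvrn2, so that gene counts in both lists and is not particular to rods.

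The other named lower genes were the liver gene fabp10a, the retinol carrier gene rbp2a, apoda.2 and si:ch211-76l23.4. The liver fatty acid binding protein gene fabp10a had 8.41 in Gulfport, 9.47 in Fort Morgan, 10.19 in Perdido Key, and 9.30, 9.24 and 9.59 in controls (difference -1.42, SE 0.28, limma adjusted p = 0.172). The gene rbp2a, a cellular carrier of retinol in the gut, had 8.13 in Gulfport, 9.50 in Fort Morgan, 9.30 in Perdido Key, and 9.38, 9.57 and 9.82 in controls (difference -1.27, SE 0.20, limma adjusted p = 0.0870). For fabp10a Gulfport alone lay below the controls, at -0.97 from their mean, and Perdido Key lay above all of them, at 0.81. For rbp2a Gulfport lay furthest below the controls, with Perdido Key just under them. The apolipoprotein D gene apoda.2 had 7.92 in Gulfport, 8.93 in Fort Morgan, 9.13 in Perdido Key, and 9.24, 9.28 and 9.58 in controls (difference -1.10, limma adjusted p = 0.102). The gene si:ch211-76l23.4 was at -1.35 (limma adjusted p = 0.104). The lipoprotein gene apoba had 9.55 in Gulfport, 10.55 in Fort Morgan, 10.44 in Perdido Key, and 10.53, 10.73 and 10.61 in controls (difference -0.94, limma adjusted p = 0.0870). Of 18 liver secretory genes, 11 lay below both other emulsions and 5 above both, with a median of -0.24. Of 27 lipid transport and oxidation genes, 16 lay below both and 6 above both, with a median of -0.09. Of 19 retinoid and visual cycle genes, 13 lay below both and 3 above both, with a median of -0.18, and the retinol dehydrogenase gene rdh10b went the other way at 1.02. No list of this group had a called member.

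By list median, digestive enzymes of the exocrine pancreas were below the control mean in all 3 exposed cups and lowest in Gulfport. The trypsin gene prss1 had 8.02 in Gulfport, 8.95 in Fort Morgan, 9.40 in Perdido Key, and 9.79, 9.88 and 10.19 in controls (difference -1.16, limma adjusted p = 0.172). Chymotrypsinogen, from ctrb.1, was at -1.29 and the elastase gene cela1.6 at -0.88. Of 19 genes, 11 lay below both other emulsions and 2 above both, with a median of -0.28 and 0 called. Against the control mean the median was -0.63 in Gulfport, -0.56 in Fort Morgan and -0.33 in Perdido Key. Gulfport was the lowest of the 6 arrays in 10 of the 19 (52.6%, against 24.9% of all genes). Many members were dim at this age, with a median log2 level of 5.65 in Gulfport and 6.47 to 6.76 in controls.

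Neuron, cartilage and mitochondrial genes differed by small amounts in 1 direction. Of 46 neuron genes, 35 lay below both other emulsions and 5 above both, with a median of -0.24, and Gulfport was the lowest of the 6 arrays in 32 (69.6%, against 24.9% of all genes). The neurofilament gene neff1 had 6.27 in Gulfport, 7.26 in Fort Morgan, 7.23 in Perdido Key, and 6.79, 6.99 and 7.29 in controls (difference -0.98, limma adjusted p = 0.184). The synaptic genes cplx2a, a regulator of vesicle fusion, and sypb, a vesicle protein, were at -0.74 and -0.63. The neuronal sodium pump gene atp1a3b was at -0.74. Of 34 cartilage, bone and matrix genes, 26 lay below both other emulsions and 5 above both, with a median of -0.23 (-0.13 without Perdido Key). Gulfport was the lowest of the 6 arrays in 15 of these 34 (44.1%). The collagen gene col11a2 was at -0.63 and the matrilin gene matn1 at -0.55. For col11a2 the Gulfport value of 7.41 lay within the control range of 7.31 to 8.41. Against the control mean this list's median was -0.19 in Gulfport, -0.02 in Fort Morgan and 0.15 in Perdido Key. Of 65 genes of mitochondrial respiration, 44 lay below both other emulsions and 2 above both, with a median of only -0.09, and Gulfport was lowest of the 6 in 28 (43.1%). None of the 3 lists had a called member.

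Several large lists stood close to the value over all genes. The medians were 0.00 over 66 ribosomal protein genes, 0.00 over 67 cell cycle genes, -0.03 over 36 skeletal muscle genes and 0.03 over 13 heart genes. The median over 38 epidermis and keratin genes was also 0.00, though it became 0.17 without Perdido Key. Its members of largest difference pointed both ways: the simple-epithelium keratin gene krt18a.1 was at 0.97 and the annexin gene anxa2a at 0.89, and the keratin genes krt1-19d and krt15 were at -0.93 and -0.82.

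The position of each array between the control ages was read from genes that change with age. On a scale where unexposed embryos at 48 hpf stand at 0 and the mean of those at 96 hpf at 1, set by 1181 probe sets that differed by at least 1 between those ages, Gulfport lay at 0.494, Fort Morgan at 0.523 and Perdido Key at 0.598. The controls lay at 0.533, 0.555 and 0.609. Gulfport had the lowest position of the 6 arrays, and the exposed arrays spanned a wider range than the controls did. Both sets were mostly higher in the mean of the controls at 96 hpf than in that at 72 hpf. Of the 12 lower probe sets, 12 were higher at 96 than at 72 hpf (43.5% of all tested), by a median of 0.92. Of these 12, 6 rose by at least 1 (2.51%). From 48 to 72 hpf, 10 of the 12 rose by at least 1, compared with 340 of all 9803 tested. Of the 49 higher probe sets, 45 were higher at 96 than at 72 hpf, by a median of 0.40 and in 8 by at least 1. The value at 96 hpf is the mean of 2 control arrays. In 44 of these 49, replicate 2 exceeded replicate 1, by a median of 0.88. The part of replicate 2 in this rise was not tested. From 48 to 72 hpf, 2 of the 49 rose by at least 1. In the Gulfport cup collected at 96 hpf, 7 of the 12 lower probe sets lay below the control mean (55%). The part of age in the difference of either set was not tested.

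Against the control mean at 72 hpf the 49 higher probe sets had a median of 1.73 in Gulfport, 0.39 in Fort Morgan and -0.02 in Perdido Key. Fort Morgan exceeded Perdido Key in 39 of them (48.3% of all tested) and all 3 controls in 32 (22.7%). Perdido Key exceeded all 3 controls in 11 (22.6%). These 3 exposed arrays chose the 49, so the counts describe them and test nothing. The Gulfport cups of other ages took no part in the choice. In the Gulfport cup collected at 96 hpf, 11 of the 49 lay above the control mean (45%) and 0 by at least 1 (0.357%). The median there was -0.34. The control mean at 96 hpf includes unexposed replicate 2, which exceeded replicate 1 in 44 of the 49. This Gulfport array lay below both controls in 15 of the 49 (3664 of all 9803 tested) and above both in 6 (2892 of all). In the Gulfport cup collected at 48 hpf, 32 lay above the control (52.3%), with a median of 0.16. Against these controls the later and earlier Gulfport cups thus did not show the excess seen at 72 hpf. Both their exposure window and their age differ from those of the cup at 72 hpf.

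**Figure D5:**
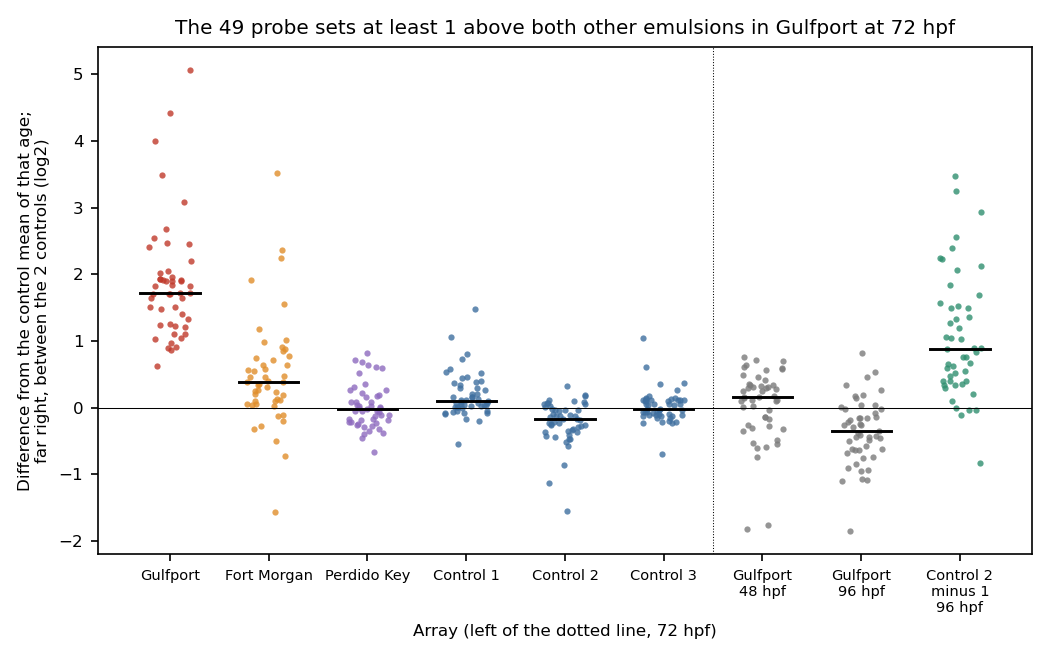
The 49 probe sets at least 1 above both other emulsions in Gulfport at 72 hpf, each a point; the vertical axis is the log2 difference from the control mean of the same age, except in the last column, which is unexposed replicate 2 minus replicate 1 at 96 hpf, and black bars are medians. The medians are 1.73 in Gulfport, 0.39 in Fort Morgan, -0.02 in Perdido Key, 0.16 and -0.34 in the Gulfport cups at 48 and 96 hpf, and 0.88 between the unexposed arrays at 96 hpf.

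The same probe sets also differed between the unexposed arrays at 96 hpf. Replicate 2 exceeded replicate 1 in 44 of the 49 (45% of all tested), by a median of 0.88. It did so by at least 1 in 22 of the 49, compared with 63 of all 9803 tested (0.643%). These 22 are 44.9% of the higher probe sets and 34.9% of the 63. For ptgs2a replicate 2 had 6.89 and replicate 1 had 5.53, and for hsp70.3 they had 7.64 and 6.11. For junba they had 9.48 and 7.09, and for mmp13a 8.85 and 6.72. For junba replicate 2 exceeded the Gulfport value at 72 hpf, while for the other genes it lay below it. Over whole lists, replicate 2 was above replicate 1 by a median of 0.88 for JAK-STAT signalling and 0.78 for immediate early genes, against -0.01 over all genes. The other 27 probe sets were less than 1 apart between the unexposed arrays, and they include ppp1r15a, mknk2b, zgc:111983, hsp90aa1.2, pfkfb3, sqstm1, gpx1b, socs3b, serpinh1b and cd44a. That limit does not mean no difference. Replicate 2 minus replicate 1 was 0.90 for socs3b, 0.66 for the called probe set of mknk2b, 0.52 for serpinh1b and 0.40 for hsp90aa1.2. It was -0.03 for the called probe set of zgc:111983. For ppp1r15a replicate 2 had 8.40 and replicate 1 had 7.93, below its Gulfport value of 9.28. The part of what set the unexposed arrays apart in the difference of the Gulfport cup was not tested.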

How the data were processed

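The authors deposited log2 signals, 1 per probe set, computed with RMA per the submitters' processing notes. The program behind it is not given in the sources used here. This method gives all arrays nearly the same distribution, so a shift in total RNA would not show. No scanner files were used here, so there are no detection calls. From 15617 probe sets, 115 AFFX controls were left out, and the 9803 at log2 6 or more in at least 1 of 11 arrays were tested. Some, such as those of gadd45aa, fas, irf7 and rdh10b, reached it only in the Gulfport array at 72 hpf. Symbols came from the platform annotation: 10795 probe sets had 1, 135 several and 4572 none. Of the symbols' Entrez identifiers 10711 matched RefSeq, which changed 1. The brightest probe set over the 11 arrays stood for a gene, and no gene of the size rule had probe sets of opposite sign.

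The test was limma 3.58.1 (lmFit, eBayes) in R 4.3.3 on the 6 arrays at 72 hpf, with 1 mean each for Gulfport, the other emulsions together, and controls. It had 3 residual degrees of freedom, 2 from controls and 1 from Fort Morgan against Perdido Key, and 4.69 prior ones; p-values are two-sided with Benjamini-Hochberg adjustment over 9803. The number of arrays limits the precision. The script was tested on simulated data with 200 changed probe sets.

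Named genes are, per direction, up to 12 past adjusted p 0.05 with Gulfport beyond both other emulsions, by size; open places went to genes at least 1 from both, given as not passing (12 higher, 5 lower). Each list adds its 4 members furthest from 0 at most, and cyp1a, cyp1c1, mmp9, mmp13a, timp2b and socs3b are given in every case. Genes given outside the rule were chosen as markers or after their values were seen. They are hspa5, opn1sw1, chemokine genes, crx, lyz, mpx, marco, csf1ra and probe sets at the edge of the size rule. Those listed as called, or as less than 1 apart between the unexposed arrays, were chosen likewise. The 45 lists named 1880 genes, 1225 on the array and 1068 tested. Members, lists and rules were chosen with earlier results of these data known. Alternatives changed the filter, scaling, source of spread, moderation, size and arrays used. Genome coordinates are not reported, because the sources name no build. Figures used Python 3.11.15, pandas 2.3.3 and matplotlib 3.10.9.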

Additional observations from a re-analysis of the deposited data

Results flagged for a closer look

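For 6 named genes the Gulfport array lay on one side of all its controls at 72 hpf and on the opposite side of both controls at 96 hpf. The named genes were chosen by the Gulfport array at 72 hpf, so large values of the difference below were favoured in advance. Some margins at 96 hpf were small. There timp2b had 4.84 in Gulfport and 4.94 in control replicate 1, and fabp10a had 11.68 and 11.54. The difference of Gulfport minus control at 72 hpf less that at 96 hpf was tested with limma over 9803 probe sets and called 0, with 953 at an unadjusted p under 0.05, so none of the 6 passed. For mmp9 it was 5.07 (4.00 at 72 hpf and -1.07 at 96 hpf, limma adjusted p = 0.191). For timp2b it was 3.82 (3.09 and -0.73, 0.178), for slc16a9a 3.29 (2.68 and -0.62, 0.191) and for ptgs2a 2.87 (1.92 and -0.95, 0.191). On the lower side it was -1.15 for fabp10a (-0.97 and 0.18, 0.191) and -2.09 for si:ch211-76l23.4 (-1.72 and 0.37, 0.115). For mmp9, timp2b, slc16a9a and ptgs2a unexposed replicate 2 at 96 hpf was at least 1 above replicate 1, and its part in these differences was not tested.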

How the results depend on the processing

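No paired analysis was possible because each emulsion had 1 array and the groups share no replicate numbers. With 8 called higher and 0 lower as reported, limma called 13 higher with no filter, 3 with a log2 minimum of 8, 15 with the spread of the 3 controls only and 14 with a variance trend and robust moderation. It called 0 higher over all 11 arrays (488 at an unadjusted p under 0.05) and 0 over the 3 exposed arrays alone (430). Leaving out 1 control gave 1 to 7 higher. Without Fort Morgan there were 15 higher and 1 lower, and without Perdido Key 3 higher. Without Perdido Key and control replicate 2 together, an alternative chosen after seeing the data, there were 3. No setting other than the omission of Fort Morgan called any probe set lower. The size rule gave 49 higher and 12 lower; at a difference of 0.5 it gave 221 and 109, at 1.5 it gave 11 and 0, and with a log2 minimum of 8 it gave 34 and 7. Against Fort Morgan alone, also chosen after seeing the data, 71 were higher and 13 lower. Of 251 values of named genes under these settings, 220 kept direction and side of the threshold, 24 lost the call, 7 gained it and 0 reversed. Of 180 list medians, 15 turned sign, all from lists whose median was at most 0.07 in size. Among list values, 51 moved beyond the control spread. No rescaling moved the median over all probe sets by more than 0.02.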
